A study of Drosophila melanogaster with 18 samples.

Results

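Catalase (Cat), the 3 superoxide dismutases Sod1, Sod2 and Sod3, and Ccs, the copper chaperone for Sod1, were followed in the nuclei of R1-R6 photoreceptors of Drosophila melanogaster during aging and during blue light stress. The 5 genes were found by matching the FlyBase gene identifiers of the count table to their symbols, and they are 5 of the 17811 features in it. All 5 were among the 9427 features whose count exceeded 10 in all samples, and only these were tested. The transgene used to tag the nuclei sits in the 5′ UTR of Cat in this fly line, and every sample carries that insertion.

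The study asked how gene expression in photoreceptors changes with age and with light stress, and used 6 conditions with 3 biological replicates each, 18 samples in all. Male flies were collected at day 5, day 15 and day 30 (D5, D15 and D30), and day 5 flies were exposed to blue light for 3, 5 or 8 h. Nuclei tagged by GFP fused to a KASH domain were pulled down from pooled heads, and total nuclear RNA was sequenced after removal of rRNA. All flies were w1118 with the cn and bw mutations, which leave the eyes white, and all carried the P-element transgene Rh1-GFP-Msp300KASH 3-1, in which the regulatory elements of Rh1 (ninaE) drive the tag in R1-R6 cells. The data thus describe a single transgenic line, males only, and no line without the insertion in Cat was sequenced among these samples, so the level of Cat with and without it cannot be compared here.

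Superoxide is formed as a by-product of respiration and by light-driven reactions in the eye. Superoxide dismutases turn it into hydrogen peroxide, Sod1 with copper and zinc in the cytosol, Sod2 with manganese in the mitochondrial matrix, and Sod3 with copper and zinc at the cell surface or outside the cell. Ccs inserts copper into Sod1, and catalase breaks hydrogen peroxide down to water and oxygen in peroxisomes.

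Libraries held 11.4 to 20.5 M counted read pairs, 24.5% to 44.9% of the pairs in the table, and the 3 D30 libraries had the lowest shares counted. D5 and D15 were sequenced in one lane, the 3 blue light conditions in a second lane of that flowcell, and D30 on another flowcell. D15 against D5 and 8 h against 3 h are therefore within a lane, and in every other comparison the lane and the condition cannot be told apart. All 10 markers of R1-R6 photoreceptors were abundant, with a summed level of 42185 to 78870 cpm (counts scaled to a common library size). Of the markers of other cells, those of fat body summed to 1336 to 1953 cpm after 8 h of blue light against 3186 to 4226 at D5. Those of glia summed to 1357 to 2026 cpm after 3 h against 417 to 501, through Eaat1, a glutamate transporter, alone, the only one of the 5 called with 2 RUVs factors (1406 ± 384 cpm against 127 ± 37.8, SD, n = 3 each). Gs2, the next most abundant glial marker, had 180 ± 40.5 cpm after 3 h and 271 ± 28.7 at D5. The glial sum was under D5 at 8 h (248 to 300 cpm) and D15 (258 to 275 cpm). That of fat body was also under D5 at D15 (2107 to 2649 cpm). The sums of other neurons, hemocytes, and pigment and cone cells were under D5 in all other conditions. That of R7 and R8 cells was under D5 at 3 h and 8 h and above it at D30. The R1-R6 sum was 54044 to 62787 cpm at D5, 59252 to 62280 at 8 h and 74735 to 78870 at D15. Fewer nuclei of a type and less RNA per nucleus cannot be told apart in these samples.

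By level per length, Cat stood far above the other genes. Its median over the 18 samples was 2469 RPKM (cpm per kilobase of exon), against 50.05 for Sod1, 9.58 for Sod2, 6.281 for Ccs and 3.87 for Sod3. Cat took between 0.267% and 1.48% of all counts of a library and ranked between 1 and 22 of all features by RPKM. The range of Cat, 1274 to 8895 RPKM, overlapped that of ninaE, the gene of the major rhodopsin, which ran from 2966 to 7888 RPKM.

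**Figure D1:**
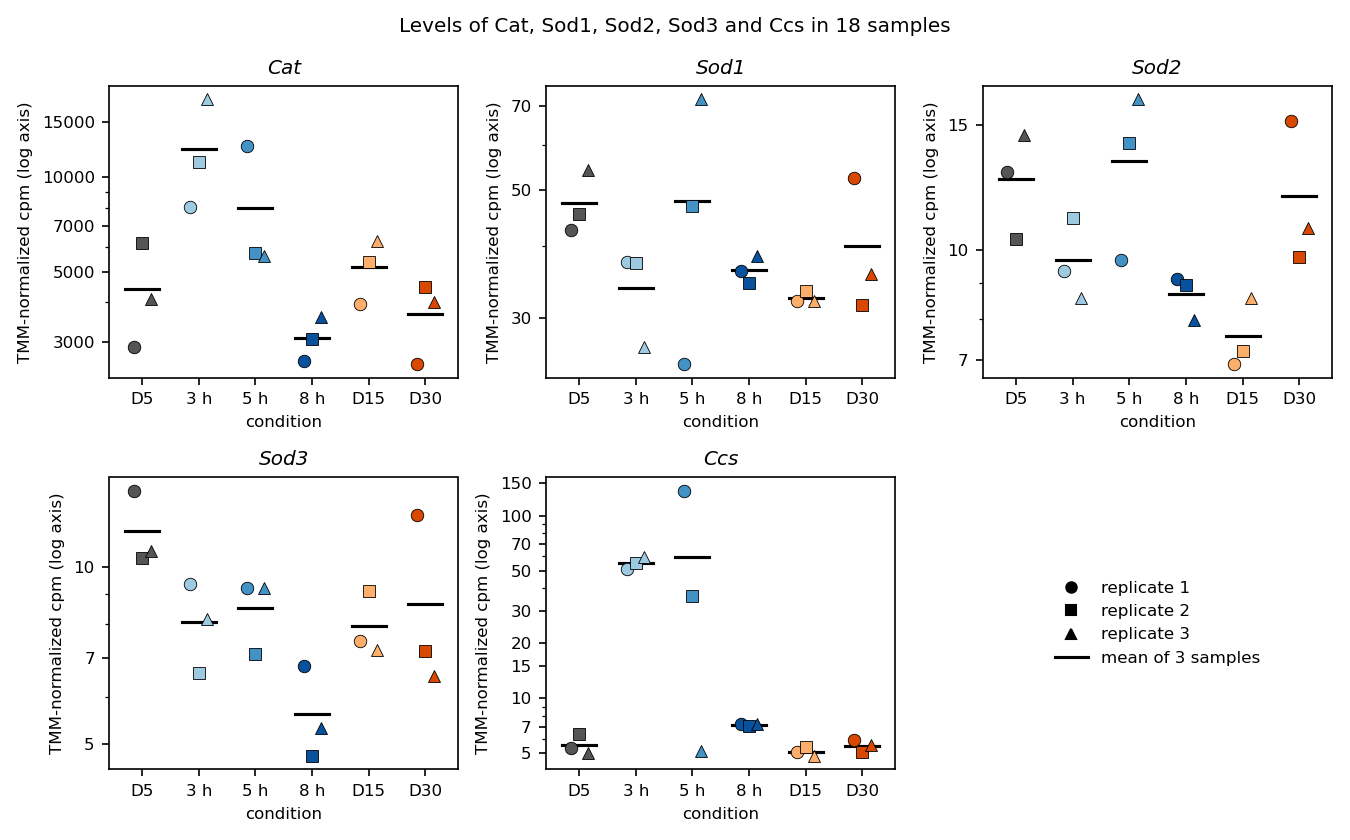
Levels of the 5 genes in each of the 18 samples, as TMM-normalized cpm on a log axis whose range differs between panels, by condition (D5, 3, 5 and 8 h of blue light, D15, D30). Points are samples, their shapes are the replicates 1 to 3, and bars are the means of 3 samples. Cat was highest after 3 h, and Ccs was above 36 cpm in all 3 samples at 3 h and 2 of 3 at 5 h and at or under 7.29 cpm in every other sample.

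Cat lies on chromosome arm 3L, plus strand, at 18822604 to 18828188 in the annotation of build BDGP6.54. Its single annotated transcript has 3 exons and 1993 bases, of which 182 are 5′ UTR, and its first intron has 3495 bases. At D5 the 3 samples had 2878, 6198 and 4112 cpm (TMM-normalized, here and below), and the mean was 4396 ± 1678 (SD, n = 3). After 3 h of blue light they had 8029, 11158 and 17727 cpm, and all 3 were above every D5 sample. After 5 h the values were 12623, 5758 and 5614 cpm, so one sample was as high as at 3 h and the other two lay in the range of D5. After 8 h they were 2597, 3049 and 3603 cpm, a mean of 3083 ± 504 (SD, n = 3) and the lowest of the 6 conditions. D15 samples had 3941, 5370 and 6266 cpm. D30 samples had 2539, 4472 and 4009 cpm, and both ages overlapped D5. In the order of the means, 3 h, 5 h, D15, D5, D30 and 8 h, each condition overlapped its neighbours.

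Cat was downregulated between 3 h and 8 h of blue light, the comparison within a lane. Its mean at 8 h was 0.251 of that at 3 h, and the fitted log2 fold change was -1.55 (SE 0.377, 95% interval -2.35 to -0.74, adjusted p = 0.0141 in the edgeR quasi-likelihood test). Without the RUVs factors, which take up variation between replicates of a condition, the change was -1.997 with an adjusted p of 0.00127. The call was kept in 14 of 18 fits that left out 1 sample and was lost without replicate 3 at 3 h (adjusted p = 0.0567), without replicate 1 or 2 at 8 h (0.0937 and 0.0502) and without replicate 1 at D30 (0.0545). DESeq2 gave -1.57 with an adjusted p of 0.0760, and a fit with the replicate number as a block gave -0.72 with an adjusted p of 0.159, so the call was lost in both. It was 1 of the 5 genes called in this comparison, beside 15.5% of all genes tested.

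Against D5, the higher level of Cat at 3 h was 2.80 times the mean of D5, but the fitted log2 fold change was 0.68 (SE 0.325, 95% interval -0.02 to 1.37) and the adjusted p was 0.222. Without RUVs factors it was 1.48, with an adjusted p of 0.0138, so the call depends on the factors. At 5 h the log2 fold change was 0.26 (SE 0.289, adjusted p = 0.605), and at 8 h it was -0.87 (SE 0.338, adjusted p = 0.117). With all D5_5h samples left out, an alternative added after seeing the data, the value at 8 h was -0.90 with an adjusted p of 0.0172. At D15 and D30 the log2 fold changes were -0.04 (95% interval -0.62 to 0.54) and -0.19 (-0.76 to 0.37), neither called, and the sign at D15 turned without factors (0.24).

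The transgene inserted in Cat brings its own readout, since GFP is a feature of the table, and ninaE shares its regulatory elements. GFP had 127, 120 and 153 cpm at D5, 98.5, 139 and 139 cpm after 3 h, and 360, 66.1 and 69.7 cpm after 5 h. The 5 h sample with the highest GFP was also the one with the highest Cat. After 8 h GFP was at 96.5, 83.9 and 52.7 cpm, under every D5 sample, and the fitted difference was -1.30 on the log2 scale (SE 0.395), with an adjusted p of 0.0533. The value without factors was -0.78 (adjusted p = 0.307). At 3 h the fit gave -1.39 for GFP (SE 0.397, adjusted p = 0.0448) although the mean was 0.943 of that at D5, and without factors it was -0.08 with an adjusted p of 0.926. ninaE rose at D30, from a mean of 5431 ± 836 to 10341 ± 2005 cpm (SD, n = 3 each), and its log2 fold change was 1.00 (SE 0.147, adjusted p = 0.000623), while that of Cat in the same comparison was -0.19 (adjusted p = 0.655). Over the 18 samples Pearson's r of log2 cpm with Cat was 0.376 for GFP and 0.119 for ninaE, as a description, and they ranked 2237 and 3507 among the genes by this r. Within the blue light lane, over 9 samples, r was higher, at 0.658 for GFP and 0.752 for ninaE. Within the lane of D5 and D15, over 6 samples, it was 0.416 and 0.0859.

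Genes next to Cat lay far below it in level per length, at 13.2 to 21.7 RPKM for CG14073, 3.83 to 7.22 RPKM for HipHop and 5.51 to 15.3 RPKM for Indy. Within 20 kb the annotation has CG14073, which ends 1929 bases before Cat on the other strand, HipHop, a telomere capping gene that ends 251 bases before Cat on the same strand, Indy, a citrate transporter gene 444 bases after Cat on the other strand, and a long noncoding RNA, lncRNA:CR32027, that was too low to test. CG14073 stayed between 103 and 169 cpm, HipHop between 4.53 and 8.54 cpm, and Indy between 16.9 and 47.1 cpm, and none of the 8 comparisons gave an adjusted p under 0.05 for any of these 3. Their r with Cat over the 18 samples was -0.41, -0.13 and -0.29.

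**Figure D2:**
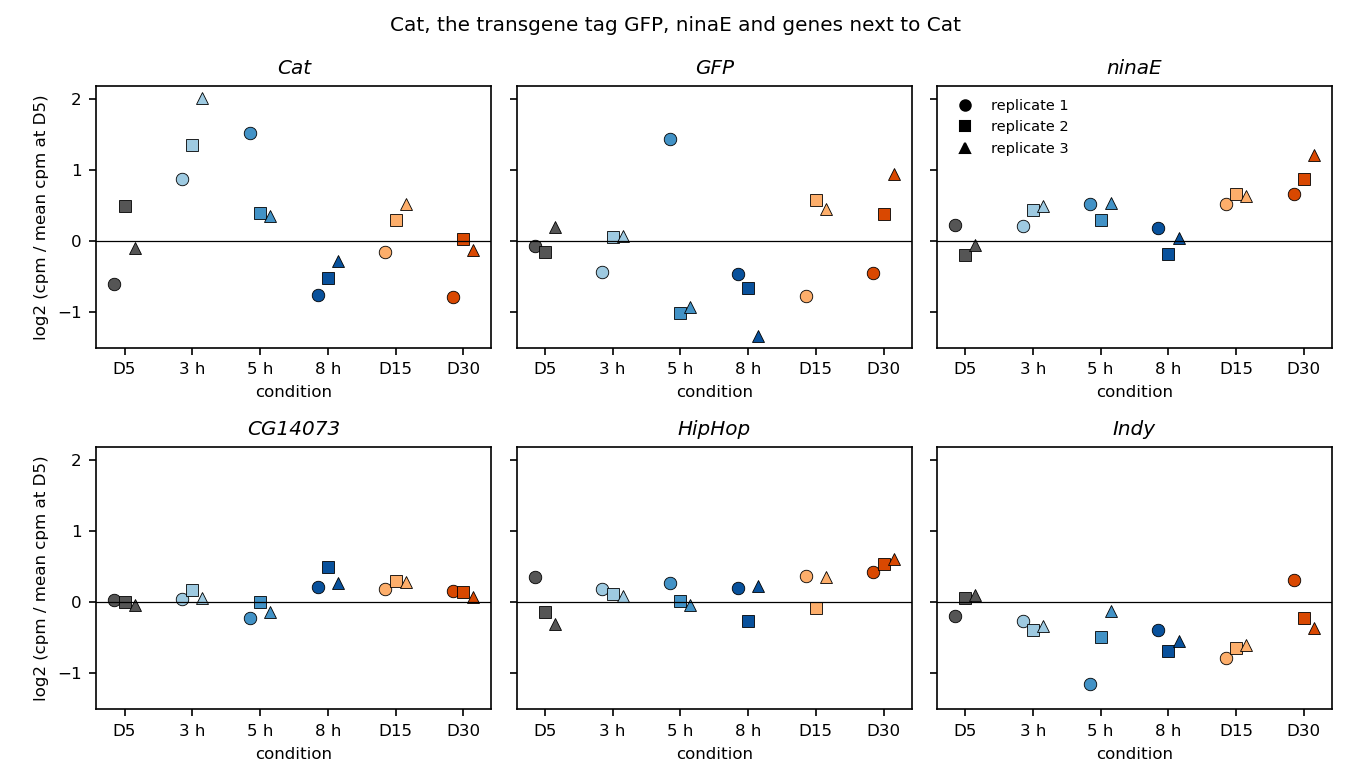
Level of Cat, of the transgene's GFP, of ninaE and of the 3 tested neighbours of Cat in each sample, as log2 of cpm over the mean cpm at D5 (y axis, the same in every panel), by condition (x axis). Points are samples and shapes are replicates. Cat and GFP share the high replicate 1 at 5 h, ninaE is highest at D30, and CG14073 and HipHop keep within 1 log2 unit of D5.

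Ccs, which loads copper onto Sod1, had the largest rise of the 5 genes. It lies on 2R, minus strand, at 10121486 to 10122574 in BDGP6.54, with 2 annotated transcripts. At D5 its samples had 5.36, 6.37 and 5.00 cpm, and after 3 h of blue light 51.3, 55.0 and 59.3 cpm. The groups did not overlap, the 3 h samples were close to each other, and the ratio of the means was 9.89. After 5 h the samples had 137, 36.4 and 5.19 cpm, so one was far above 3 h, one between and one at the level of D5. After 8 h all 3 were at 7.21, 7.07 and 7.29 cpm, just above the highest D5 sample. D15 samples had 5.12, 5.40 and 4.85 cpm and D30 samples 5.90, 5.07 and 5.55 cpm, in the range of D5 or just under it.

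In the test across all genes, Ccs was upregulated at 3 h and at 5 h against D5, beside 4.64% and 5.07% of all genes tested that were called higher. The log2 fold change was 1.27 at 3 h (SE 0.320, 95% interval 0.59 to 1.95, adjusted p = 0.0260) and 1.63 at 5 h (SE 0.285, 95% interval 1.02 to 2.24, adjusted p = 0.00459). These fitted values are below the ratios of the means. The first RUVs factor was high in the 3 h samples (0.41 to 0.57), ran from -0.52 to 0.84 over the 5 h samples and carried 3.11 log2 units of Ccs per unit. Without factors the log2 fold changes were 3.31 (adjusted p = 0.00480) and 3.41 (adjusted p = 0.0105). With all D5_5h samples left out, the value at 3 h was 3.24 with an adjusted p of 2.29e-07. The call at 3 h was kept in 15 of 18 fits without 1 sample and was lost without replicate 3 of D5 (adjusted p = 0.0662) and without replicate 1 or 2 at 3 h (0.0706 and 0.0719). The call at 5 h was lost only without its replicate 1 (log2 fold change 1.27, adjusted p = 0.0676), in 1 of 18 such fits. Without replicate 3 at 5 h, the sample at the level of D5, the values were 2.36 at 3 h and 2.88 at 5 h (adjusted p = 1.38e-05 and 1.67e-06), and without replicate 1 at 5 h the value at 3 h was 1.91 (adjusted p = 0.0412).

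At 8 h against D5 the log2 fold change of Ccs was 0.55 (SE 0.314, adjusted p = 0.281). Against 3 h it was -0.72 (SE 0.359, adjusted p = 0.180), although the mean at 8 h was 0.1303 of that at 3 h. That fall passed the test without factors (-2.94, adjusted p = 0.00354) and with all D5_5h samples left out (-2.87, adjusted p = 6.64e-07). At D15 and D30 the values were -0.45 (95% interval -1.03 to 0.14) and -0.18 (-0.76 to 0.40), and neither passed.

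The genes closest to Ccs in pattern over the samples, by Pearson's r of log2 cpm, were CG13607 (r = 0.990), CG13605 (0.988) and Cox17 (0.987), the last of them the homologue of a yeast copper chaperone of cytochrome c oxidase assembly. CG13607 had 555, 416 and 638 cpm after 3 h and 1587, 391 and 27.7 cpm after 5 h, against 20.005, 17.5 and 19.9 cpm at D5. Cox17 had 54.8, 50.4 and 71.8 cpm after 3 h and 107, 34.2 and 10.2 cpm after 5 h, against 8.38, 11.4 and 9.05 cpm at D5. All 3 had the same order of the 5 h samples as Ccs, replicate 1 highest and replicate 3 lowest. They were picked by r over these same 18 samples. Their shared order, their r within the blue light lane and their calls are thus description only. Within the blue light lane r was 0.987 to 0.990 over 9 samples, whereas within the lane of D5 and D15 it was -0.30, -0.82 and 0.78 over 6, where Ccs ran only from 4.85 to 6.37 cpm. Cox17 was called at 3 h (log2 fold change 1.01, adjusted p = 0.00483) and at 5 h (1.10, adjusted p = 0.00244).

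Nearest to Cat were CtIP, a DNA end resection gene (r = 0.975), Edem1, of endoplasmic reticulum quality control (0.959), and DJ-1alpha, a homologue of the human Parkinson disease gene DJ-1 (0.955). DJ-1alpha had 5.01, 12.5 and 6.70 cpm at D5 and 27.9, 37.1 and 58.5 cpm after 3 h. After 8 h it was at 2.69, 3.14 and 3.80 cpm, under every D5 sample, with a log2 fold change of -2.60 against 3 h (adjusted p = 0.000674). Within the lane of D5 and D15 these 3 genes had an r of 0.862 to 0.929 with Cat. They were picked by r over samples that include this lane. Their r within it and the fall of DJ-1alpha are thus description only. Cat and Ccs had an r of 0.787 (Spearman's rho 0.389), which was 0.254 within the lane of D5 and D15, 0.851 within the blue light lane and 0.171 after removal of the RUVs factors, and Ccs ranked 507 among the genes by r with Cat.

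**Figure D3:**
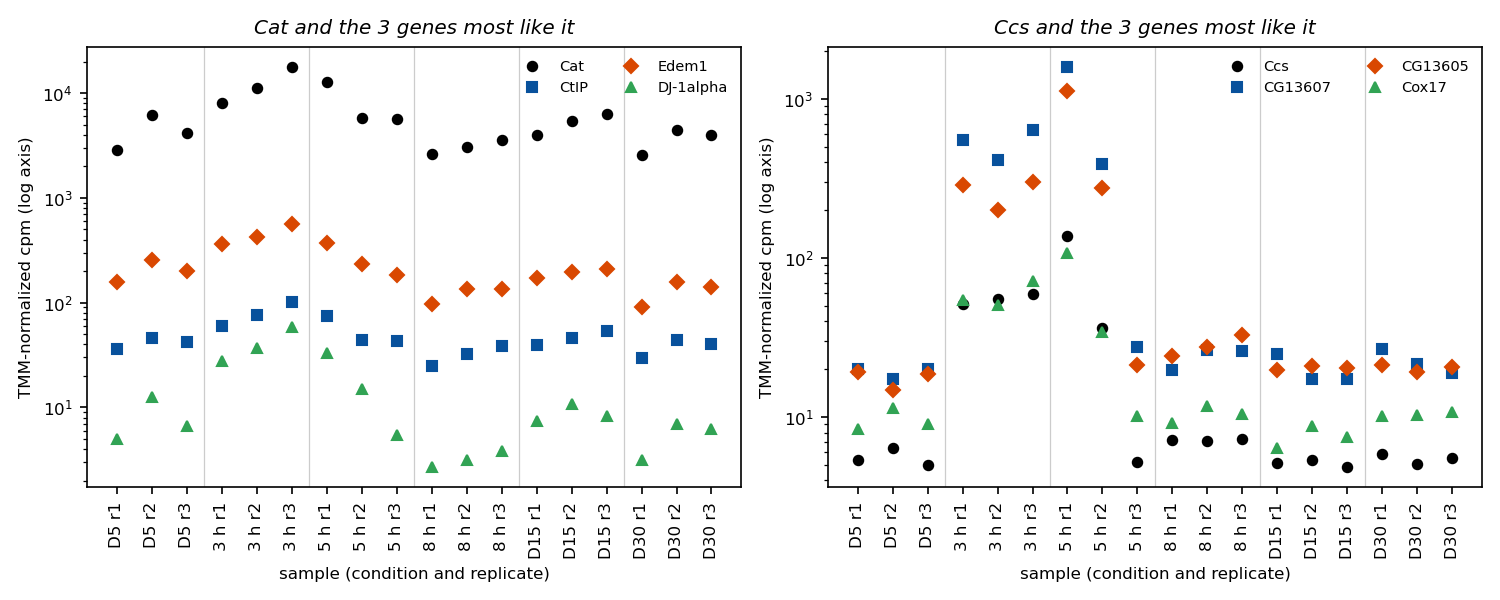
Cat (left) and Ccs (right) with the 3 genes whose log2 cpm correlated best with each over 18 samples, as TMM-normalized cpm on a log axis for every sample, named by condition and replicate (r1 to r3). Ccs, CG13607, CG13605 and Cox17 are raised in the 3 h samples and in replicates 1 and 2 at 5 h, while replicate 3 at 5 h is near D5.

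Sod1, the cytosolic dismutase, lies on 3L, minus strand, at 11112281 to 11113740 in BDGP6.54. Its samples had 42.7, 45.5 and 54.3 cpm at D5, and 37.6, 37.4 and 26.8 cpm after 3 h, all under D5. After 5 h they had 24.9, 47.0 and 72.0 cpm, which include the lowest and the highest of all 18 samples, and the order was the reverse of that of Ccs. After 8 h they had 36.2, 34.6 and 38.5 cpm and at D15 32.1, 33.4 and 32.1 cpm, all under D5, while D30 with 52.5, 31.7 and 35.8 cpm overlapped it.

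No difference of Sod1 passed the test in any of the 8 comparisons. At 3 h the fit gave 0.30 (SE 0.166, adjusted p = 0.294) although each sample lay under D5, and the sign turned without factors (-0.49, adjusted p = 0.232) and with all D5_5h samples left out (-0.22, adjusted p = 0.458). At 5 h, where Ccs was called, the fit gave 0.33 (SE 0.146, 95% interval 0.02 to 0.64, adjusted p = 0.155), it was called with a filter of cpm over 10 in every sample (0.41, adjusted p = 0.0206), and without factors the value was 0.02 (adjusted p = 0.980). At D15, within a lane, the log2 fold change was -0.33 (SE 0.137, 95% interval -0.62 to -0.04, adjusted p = 0.180). The genes most like Sod1 were CG2604 (r = 0.972), EbpIII (0.967) and Gs2 (0.961), and Gs2, a glutamine synthetase, is on the list of glial markers. Gs2 had 266, 246 and 303 cpm at D5 and 126, 249 and 387 cpm after 5 h, in the same order as Sod1. Gs2 was picked by its r with Sod1. After 3 h, where every Sod1 sample lay under D5, the glial markers summed to 1357 to 2026 cpm, through Eaat1. Their sum at D5 was 417 to 501 cpm. It was under D5 at 8 h (248 to 300 cpm) and D15 (258 to 275 cpm), where every Sod1 sample also lay under D5. The part of other cells in the Sod1 counts was not tested.

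Sod2, the mitochondrial enzyme, lies on 2R, minus strand, at 16772785 to 16773915 in BDGP6.54, with 2 transcripts. It had 12.9, 10.4 and 14.5 cpm at D5, 9.35, 11.1 and 8.57 cpm after 3 h and 9.67, 14.1 and 16.3 cpm after 5 h. After 8 h it had 9.10, 8.92 and 7.97 cpm, and at D15 6.91, 7.22 and 8.56 cpm, and both conditions were under every D5 sample. At D30 the values were 15.2, 9.77 and 10.7 cpm, above each D15 sample and in the range of D5. The log2 fold change at D15 was -0.62 (SE 0.178, 95% interval -0.99 to -0.24, adjusted p = 0.0661), and it passed in DESeq2 (-0.62, adjusted p = 0.0350) and with 1 factor (-0.65, adjusted p = 0.0473). It did not pass without factors (-0.74, adjusted p = 0.143) or with the replicate block (-0.62, adjusted p = 0.0800). Nor did it pass with all D5_5h samples left out (-0.48, adjusted p = 0.198). At 8 h it was -0.46 (SE 0.210, adjusted p = 0.179), and for D30 against D15 0.53 (SE 0.201, adjusted p = 0.363). Like Sod2 over the samples were ATPsynD (r = 0.913) and SdhB (0.873), subunits of ATP synthase and of succinate dehydrogenase in the mitochondrion, and Neb-cGP (0.885). Sod1 and Sod2 had an r of 0.792 with each other.

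Sod3, with 5 annotated transcripts, lies on 2R, minus strand, at 11380347 to 11384114 in BDGP6.54. It was highest at D5, at 13.5, 10.4 and 10.6 cpm, and every blue light sample was lower. The values were 9.35, 6.60 and 8.16 cpm after 3 h, 9.20, 7.11 and 9.19 cpm after 5 h, and 6.78, 4.77 and 5.31 cpm after 8 h, the lowest condition. D15 samples had 7.48, 9.10 and 7.21 cpm, all under D5, and D30 samples had 12.2, 7.20 and 6.52 cpm. Sod3 at 8 h was at 0.490 of its mean at D5, and the fitted log2 change was -0.63 (SE 0.247, 95% interval -1.16 to -0.10, adjusted p = 0.123). The change was called without factors (-1.03, adjusted p = 0.0117), with 1 factor (-1.03, adjusted p = 0.00508) and without the filter on low counts (-0.97, adjusted p = 0.0167). It was not called in DESeq2, with the replicate block (-0.86, adjusted p = 0.0810) or with all D5_5h samples left out (-0.66, adjusted p = 0.0628). At D30 the log2 fold change was -0.60 (SE 0.209, adjusted p = 0.0604). It was -0.40 without factors (adjusted p = 0.349) and -0.61 in DESeq2 (adjusted p = 0.0382). The summed fat body markers fell at 8 h as given above, those of other neurons were 384 to 432 cpm at D5 and 196 to 312 cpm in all other conditions, and their part in the levels of Sod3 was not tested. Nearest to Sod3 were Acsf2 (r = 0.870), CG13594 (0.858) and Dh44-R2 (0.856).

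**Figure D4:**
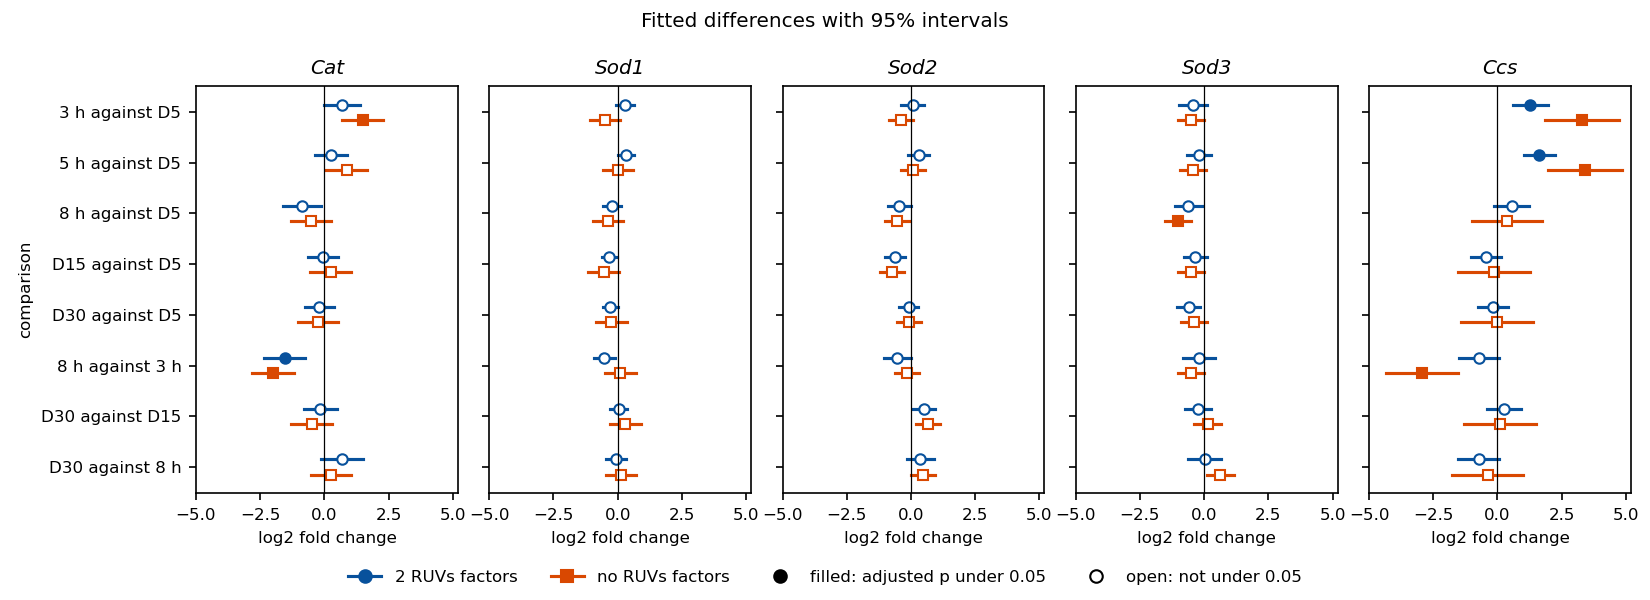
Fitted log2 fold change (x axis) of each gene in the 8 comparisons (y axis), with 95% intervals, from the edgeR fit with 2 RUVs factors (circles) and without factors (squares). Filled symbols have an adjusted p under 0.05, which with 2 factors are Ccs at 3 h and 5 h against D5 and Cat at 8 h against 3 h.

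Counted over the 5 genes against D5, 1 gene was called at 3 h (7.88% of all genes tested in either direction) and 1 gene at 5 h (9.6%). None was called at 8 h (9.08%), D15 (3.81%) or D30 (17.5%). None was called for D30 against D15 (0.223%) or D30 against 8 h (7.5%). At an unadjusted p under 0.05, 3 of the 5 genes passed at 8 h (Cat, Sod2 and Sod3) and 2 at D15 (Sod1 and Sod2). The counts were 1 at D30 (Sod3), 1 for D30 against D15 (Sod2) and 0 for D30 against 8 h. Beside the genes called, Sod1 also passed unadjusted at 5 h and for 8 h against 3 h, and none did at 3 h. The share of all genes at this threshold was not counted, so these counts have no background to be read against. DESeq2 called 0 of the 5 genes at 8 h, 1 at D15 (Sod2) and 1 at D30 (Sod3). It called 0 for D30 against D15 and for D30 against 8 h. Over the whole table DESeq2 called 679 genes at D15 and 1895 at D30. Against D5, the groups did not overlap for 4 of 5 genes at 3 h (45.2% of all genes), for 1 gene at 5 h (26.8%), for 4 genes at 8 h (50.3%), for 3 genes at D15 (34%) and for none at D30 (26.5%). They did not overlap for 2 genes at 8 h against 3 h (56.5%), 1 for D30 against D15 (25.9%) and 2 for D30 against 8 h (46%). In a test of any difference among the 6 conditions, 4 of 5 passed, beside 42.6% of all genes: Ccs (adjusted p = 0.000627), Sod1 (0.00597), Sod2 (0.00831) and Cat (0.0287), with Sod3 at 0.0836. Without factors, 52% of all genes passed, Sod3 among them (0.0407) and Sod1 not (0.285).

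Other genes that handle superoxide and peroxide were taken from lists. Of 8 peroxiredoxins and glutathione peroxidases, 5 were tested, and Gtpx, a glutathione peroxidase homologue that reduces peroxides with thioredoxin, was upregulated at 3 h, 5 h and 8 h against D5 (log2 fold changes 1.21, 1.25 and 0.99, adjusted p = 0.0101, 0.00507 and 0.0232). Its mean rose from 30.7 ± 2.62 cpm at D5 to 167 ± 15.6 cpm after 3 h, and at 5 h it was 133 ± 119 cpm (SD, n = 3 each). Prx6c, a peroxiredoxin, was downregulated at 8 h (log2 fold change -1.01, adjusted p = 0.0248). Of 6 genes of thioredoxin recycling 3 were tested, and Srx, a sulfiredoxin, which repairs overoxidized peroxiredoxins, was upregulated at 5 h (0.71, adjusted p = 0.0485) and 8 h (1.18, adjusted p = 0.00814), neither of which passed without factors. Of 5 heme peroxidases 2 were tested, and Pxn, an extracellular matrix peroxidase, was downregulated at 3 h, D15 and D30 (-0.84, -0.88 and -0.98), while Irc, an immune-regulated catalase, was upregulated at D30 (1.18, adjusted p = 0.00375). The other SOD-like list had 1 of 2 genes tested, and it was called in no comparison.

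None of the 6 producers of superoxide and hydrogen peroxide, all tested, was called against D5, and ry, the xanthine dehydrogenase, was lower at 8 h than at 3 h (-1.08, adjusted p = 0.0285). Without factors the counts differed, with 4 of the 6 lower at 8 h and 1 at 5 h against D5, and 4 lower at 8 h than at 3 h. Both heme peroxidases tested were also lower at 8 h without factors. Of 11 genes of copper supply 5 were tested, none was called at 3 h or 5 h where Ccs was, and the metallothionein MtnA was called at D30 (0.59, adjusted p = 0.00810). In the fit without factors, 1 of these 5 was called lower at 3 h and 0 at 5 h. Of 13 peroxisome genes tested, Pex7, whose yeast and human homologues import matrix enzymes, was upregulated at 3 h (1.11, adjusted p = 0.0384), and at D30 Pex3 was higher (0.60) and Pex19 lower (-0.53). Of the 8 regulators of antioxidant genes, all tested, cnc, the fly homologue of Nrf2, was upregulated at 3 h (0.42, adjusted p = 0.0444), and park was upregulated (0.71, adjusted p = 0.0158) and DJ-1alpha downregulated (-1.71, adjusted p = 0.00613) at 8 h. Without factors, the calls of Gtpx and DJ-1alpha at 8 h and of MtnA, Pex3 and Pex19 at D30 did not pass (adjusted p = 0.264, 0.0824, 0.200, 0.158 and 0.147). The medians of these lists, from -0.95 to 0.61 against D5, stood beside medians of all genes of -0.03 to 0.05. These ends came from lists with 1 tested gene (other SOD-like, 8 h) and 3 (thioredoxin recycling, 5 h). The medians of the 13 peroxisome genes ran from -0.24 to 0.15 and those of the 8 regulators from -0.11 to 0.24.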

How the data were processed

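Nuclear RNA of 18 samples was analysed. The values are counts. The authors trimmed reads with Trimmomatic, aligned them with HISAT2 to build BDGP6.28 (dm6 in the submitters' notes) and counted reads per gene with HTSeq (0.11.1 in those notes, a later version in the methods), and deposited these raw counts. The strand setting was not given in the sources used here. Rows of uncounted pairs were left out.

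Features whose count exceeded 10 in all samples (9427) were tested with edgeR 4.0.16 (R 4.3.3, limma 3.58.1) by quasi-likelihood F-tests with TMM scaling, 1 mean for each condition and 2 RUVs factors, which were written anew from the published description since RUVSeq was not installed. Adjusted p is Benjamini-Hochberg over all genes tested, and a call is an adjusted p under 0.05. Fitted log2 fold changes were taken without shrinkage. RPKM used union exon lengths of BDGP6.54, and positions are from that build. Symbols were found for 17710 of 17811 features. The procedure was tested on counts simulated from the fitted model, for 8 h against D5 only. It recovered 57 of 95 changes of 2-fold and 89 of 92 of 4-fold, with 12 false calls. Changes under 2-fold were not simulated.

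Named genes were the 5 genes, GFP, ninaE, genes within 20 kb of Cat, called genes of the lists (at most 4 a list) and the 3 genes of highest Pearson's r with each (log2 cpm, prior count 2). The genes and lists were chosen with earlier results of these data known. Alternatives were no factors or 1 factor, a filter of cpm over 10 (4211 genes) or none, DESeq2 1.42.0 size factors or its Wald test, cpm per library total, the replicate block and each sample left out, and leaving out all D5_5h samples was added after seeing the data. Replicates were labelled as biological.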

Additional observations from a re-analysis of the deposited data

Results flagged for a closer look

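The log2 fold change of Cat between 8 h and 3 h of blue light was -1.55, and it was noted because the effects of these exposures, each against D5 (0.68 at 3 h and -0.87 at 8 h), differed by a test of that difference (adjusted p = 0.0141). The call was lost with the replicate block (-0.72, adjusted p = 0.159) and in DESeq2 (-1.57, adjusted p = 0.0760). The 3 samples at 8 h were lower than the 3 at 3 h in every pair. Both exposures were in the same lane and are compared with the same D5 samples. Of the glial markers, Eaat1 had a mean of 55.2 cpm at 8 h and 1406 cpm at 3 h, whereas Gs2 had 185 and 180 cpm, and the part of glia in the difference was not tested.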

How the results depend on the processing

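Leaving out each of the 18 samples in turn gave between 0 and 1 of the 5 genes called at 3 h, 5 h and D30 against D5, 0 to 3 at 8 h, 0 to 2 at D15, 0 to 2 for 8 h against 3 h and for D30 against 8 h. Calls were gained at 8 h without replicate 1 of D5 (Cat), replicate 1 at 3 h or replicate 1 of D30 (Sod1, Sod2 and Sod3 each) or replicate 3 of D30 (Cat and Sod3), at D15 without replicate 1 at 8 h (Sod2) or replicate 1 of D30 (Sod1 and Sod2), at D30 without replicate 2 of D15 (Sod3) or replicate 1 of D30 (Sod1), for 8 h against 3 h without replicate 1 of D5 or replicate 3 of D30 (Sod1), replicate 3 at 5 h (Ccs) or replicate 1 of D30 (Sod1 and Sod2, with Cat no longer called), and for D30 against 8 h without replicate 1 at 3 h (Sod2 and Sod3). Without RUVs factors the counts were 2 at 3 h (Cat and Ccs), 1 at 8 h (Sod3) and 2 for 8 h against 3 h (Cat and Ccs). With 1 factor they were 3 at 8 h (Sod1, Sod2 and Sod3), 1 at D15 (Sod2), 2 for 8 h against 3 h (Cat and Sod1) and 2 for D30 against 8 h (Sod2 and Sod3). Without a filter they were 3 at 8 h (Sod1, Sod2 and Sod3) and 2 for 8 h against 3 h (Cat and Ccs), and with cpm over 10, which leaves only Cat and Sod1 to test, 1 at 5 h (Sod1) and 1 at 8 h (Cat). DESeq2 called 1 at D15 (Sod2), 1 at D30 (Sod3) and 0 for 8 h against 3 h. With all D5_5h samples left out, added after seeing the data, the counts were 1 at 8 h (Cat) and 2 for 8 h against 3 h (Cat and Ccs). The calls over the whole table, of 9427 genes tested in the main fit, moved as well. With 1 factor they were 3288 at 8 h (856 with 2 factors) and 3657 for D30 against 8 h (707). Without factors they were 1807 at 3 h (743), 1799 at 8 h and 3457 for 8 h against 3 h (1464). With 1 sample left out they reached 3482 at 8 h, 1525 at D15, 2939 for 8 h against 3 h and 3441 for D30 against 8 h. The gains are therefore not particular to the 5 genes, and the causes were not tested.

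No log2 fold change that reversed was called with 2 factors. Without factors these were Sod1 (-0.49) and Sod2 (-0.38) at 3 h, Cat at D15 (0.24), Sod1 at 8 h against 3 h (0.10), Sod3 for D30 against D15 (0.13) and Sod1 for D30 against 8 h (0.14). With 1 factor they were Cat at D15 (0.13), Sod3 for D30 against D15 (0.13) and Sod1 for D30 against 8 h (0.20). Without a filter they were Sod2 at 3 h (-0.10), Cat at D15 (0.11), Sod2 at D30 (0.0019), and Cat (-0.10) and Sod1 (0.34) for D30 against 8 h, and with cpm over 10 Sod1 for D30 against D15 (-0.015). With all D5_5h samples left out they were Sod1 at 3 h (-0.22), Sod2 at D30 (7.62e-05) and Sod1 at 8 h against 3 h (0.087). With 1 sample left out, values that reversed in at least 1 fit ranged, against D5, from -0.021 to 0.36 for Sod1, -0.061 to 0.14 for Sod2 and -0.55 to 0.020 for Sod3 at 3 h, -0.28 to 0.20 for Cat at D15, and -0.39 to 0.11 for Cat, -0.20 to 0.013 for Sod2 and -0.32 to 0.0011 for Ccs at D30. For D30 against D15 they ranged from -0.44 to 0.017 for Cat, -0.039 to 0.23 for Sod1 and -0.33 to 0.14 for Sod3, and for D30 against 8 h from -0.18 to 0.24 for Sod1 and -0.042 to 0.76 for Sod3.

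In no comparison was the correlation of the deviations of same-numbered samples over 0.1 in every pair, so the numbers were not taken as pairing. For 8 h against 3 h it was positive in all 3 pairs before the RUVs factors (0.263, 0.163 and 0.0799), where each sample correlated best with its own number, and -0.0149, 0.0936 and 0.115 after them. With the replicate block, 0 genes were called for 8 h against 3 h (Cat at -0.72, adjusted p = 0.159), and Cat at D15 (0.17), Sod1 for D30 against D15 (-0.033) and Cat for D30 against 8 h (-0.16) turned. The block changed no other call.

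Over all genes tested, the calls without factors were 1807 at 3 h (743 with 2 factors), 1152 at 5 h (905), 1799 at 8 h (856), 15 at D15 (359), 415 at D30 (1651), 3457 for 8 h against 3 h (1464), 26 for D30 against D15 (21) and 2436 for D30 against 8 h (707). Over the alternatives that keep every replicate or leave out all D5_5h samples, the lowest and highest counts were 427 (1 factor) and 2068 (all D5_5h samples left out) at 3 h, 730 (replicate block) and 3288 (1 factor) at 8 h, 15 and 679 (DESeq2) at D15, 818 (replicate block) and 3457 for 8 h against 3 h, 20 and 228 (1 factor) for D30 against D15, and 615 (replicate block) and 3657 (1 factor) for D30 against 8 h. With 1 sample left out they ranged from 414 to 909 at 3 h, 498 to 1713 at 5 h, 486 to 3482 at 8 h, 10 to 1525 at D15, 898 to 1779 at D30, 774 to 2939 for 8 h against 3 h, 2 to 343 for D30 against D15 and 333 to 3441 for D30 against 8 h. Ccs and Sod3 had 63 to 2052 and 74 to 236 counts a sample, which limits small differences.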
